A study of Rattus norvegicus with 63 samples.

Results

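The miR-181 family of the rat was examined in liver. Its members were taken by name from the miRNA array as rno-miR-181a, rno-miR-181b, rno-miR-181c and rno-miR-181d, which makes 4 of the 350 rat miRNAs on the array. The data comprise 63 arrays, 1 per rat, covering 15 compounds and 6 control sets that got vehicle alone, 3 rats in each. All animals were male Wistar Hanover rats, 8 to 10 weeks old at the start and dosed by gavage for up to 14 days, and per the study's methods the 3 rats of a treated group were picked among those with liver changes seen on histopathology. The study sorted the compounds into carcinogens (C), split into 8 non-genotoxic (NGC) and 2 genotoxic (GC) ones, 2 non-carcinogens (NC) and 3 compounds of undefined class, and asked whether short treatment tells these classes apart.

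The NGC compounds were acetamide (AA, 3000 mg/kg/d), dehydroepiandrosterone (DHEA, 600 mg/kg/d), methyl carbamate (Mcarb, 400 mg/kg/d), ethionine (ETH, 200 mg/kg/d) and phenobarbital sodium (PB, at a dose given in the study's methods but not in the labels), each for 14 days, methapyrilene HCl (MPy, 60 mg/kg/d) for 7 days, and diethylstilbestrol (DES, 10 mg/kg/d) and piperonyl butoxide (PBO, 1200 mg/kg/d) for 3 days. The GC compounds were C.I. Direct Black (CIDB, 146 mg/kg/d) and dimethylnitrosamine (DMN, 4 mg/kg/d), both for 7 days. Cefuroxime (CFX, 250 mg/kg/d) and nifedipine (Nif, 3 mg/kg/d) for 14 days were the NC compounds. Cyproterone acetate (CPA, 100 mg/kg/d, 14 days), thioacetamide (TAA, 19.2 mg/kg/d, 7 days) and Wy-14643 (Wy, 60 mg/kg/d, 3 days) had no defined class. Controls received methylcellulose (MC sets 1, 2, 5 and 6, all 14 days) or corn oil (CO set 3, 7 days, and CO set 4, 14 days). AA, DHEA, Mcarb, MPy, TAA and Wy share MC set 1, CFX and Nif share MC set 2, DES, ETH and PBO share MC set 5, CIDB and DMN share CO set 3, PB has MC set 6 and CPA has CO set 4. Compounds that share a control set are not independent comparisons, and the 3-day and 7-day groups on MC are compared with 14-day controls.

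MicroRNAs are short RNAs that guide the silencing complex to messenger RNAs, mainly through pairing of their seed near the 5′ end. The miR-181 family is made from paired genes and is best known from lymphocytes, where miR-181a is abundant in the thymus and tunes the signal strength of the T cell receptor. In liver it has been studied in hepatic stem-like cells and in fibrosis. These facts are background and were not tested here.

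The sequences are shown because they tell which members the array must separate. All 4 members matched a mature sequence in RefSeq (GRCr8), here 5′ to 3′ with the seed (bases 2 to 8) in capitals.
rno-miR-181a: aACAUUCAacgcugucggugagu
rno-miR-181b: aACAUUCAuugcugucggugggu
rno-miR-181c: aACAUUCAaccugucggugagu
rno-miR-181d: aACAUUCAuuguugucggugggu
The members share 1 seed, and no other mature miRNA among the 693 in the table carries it. Outside the seed they differ little. miR-181b and miR-181d differ at position 12 alone, counted from the 5′ end, and miR-181c differs from miR-181a by 1 edit and is 22 instead of 23 bases long. miR-181a and miR-181b differ at positions 9, 10 and 21, and miR-181c and miR-181d, the most distant pair, by 5 edits. Whether the probes of a member also bind another member was not tested.

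In GRCr8 the family has 6 genes in 3 pairs, all on the plus strand where the strand is given. Mir181a-1 (chr13:52037067-52037166) lies 61 bases before Mir181b1 (chr13:52037228-52037337). Mir181a2 (chr3:43025563-43025679) lies 986 bases before Mir181b2 (chr3:43026666-43026753). Mir181c (chr19:40888291-40888396) lies 77 bases before Mir181d (chr19:40888474-40888556). Both miR-181a genes give the same mature sequence, so the array reads their sum.

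The arrays and the authors' value table disagreed on 15 samples, and which of them is right was not settled. The columns of the authors' value table were matched to the arrays by their pattern over the 71 miRNAs detected on every array, and 48 of 63 columns followed the array filed under the same sample. The other 15 followed another group's arrays. DES and DHEA were exchanged, the column of MC set 1 followed arrays filed as set 5, that of set 5 arrays filed as set 2, and that of set 2 arrays filed as set 1. Values below use the arrays as filed. Values under the table's assignment are given for DES, DHEA and compounds on these 3 control sets with the results on the background-subtracted signal. For PBO and the class contrasts they are also given without background correction. In the liver check, the hepatocyte miRNA miR-122 was detected on 63 of 63 arrays with log2 signals from 14.2 to 14.7 after quantile normalization. That step gives all arrays the same distribution of values, so the range does not measure how alike the livers were.

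Only miR-181a was measured above background. The scanner software marked it as detected on 55 of 63 arrays, and it was well above background on 38. This asks that 1 or both of its 2 probes carry the software's mark on most of their spots. miR-181b, miR-181c, miR-181d and the star strand miR-181a* were detected on 0 of 63 arrays and were well above background on none. Of the 162 miRNAs detected on any array, 86 were detected on more arrays than miR-181a and 74 on fewer.

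Each member has 2 probes with 10 spots each. Of all miR-181a spots on the 63 arrays, 32.9% were well above background, against 0.238% for each of miR-181b, miR-181c and miR-181d and 0.182% of the negative control spots. With the softer mark of a signal above local background, the shares were 84.5% for miR-181a, 19.6% for miR-181b, 21.4% for miR-181c, 26.9% for miR-181d and 15.9% for the negative controls. The brighter miR-181a probe gave background-subtracted signals of 12.2 to 60.2 scanner units with a median of 33.6, and the dimmer one 0.365 to 23.5 with a median of 9.60. The probes of the other members had medians of 0.699 and 2.38 units (miR-181c), 2.01 and 2.61 (miR-181d) and -0.0644 and 2.45 (miR-181b). The spread between negative control spots of the same array had a median SD of 5.63 units. Levels of miR-181b, miR-181c and miR-181d were thus not measurable here, which does not show that they are absent from liver.

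**Figure D1:**
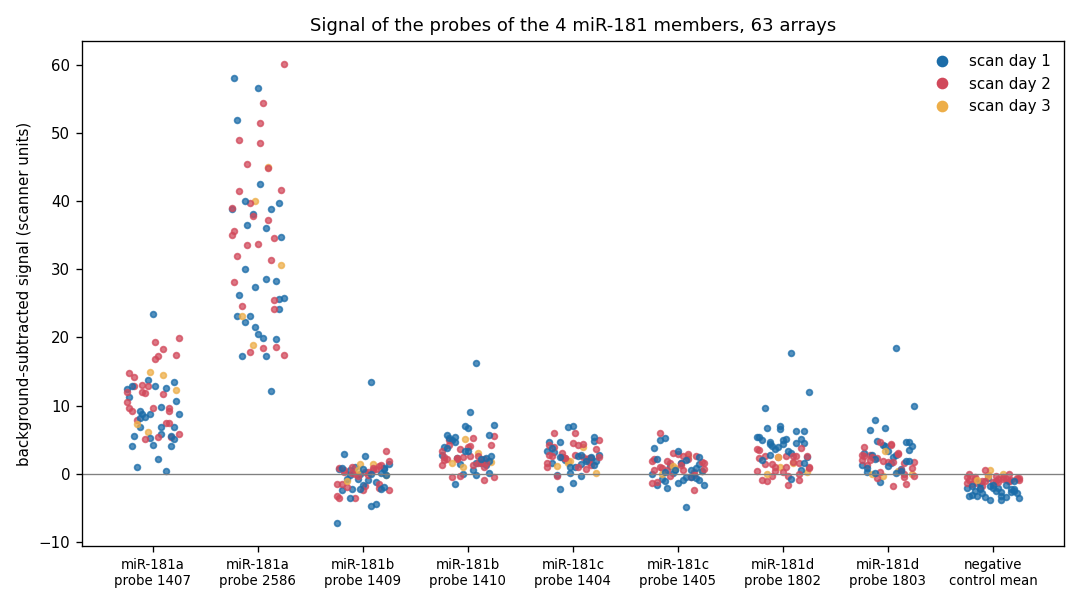
Background-subtracted signal in scanner units (vertical axis) of the 2 probes of each of the 4 members and the mean of the negative control spots, 1 point per array, coloured by scan day. The brighter miR-181a probe lies between 12.2 and 60.2 units, and the medians of the other members' probes lie between -0.0644 and 2.61 units. One MC set 6 array reaches 18.4 units, and a CO set 4 array reaches 12.0 units for miR-181d.

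A single rat stood apart in 2 members, and it was picked out after its values were seen. In the third rat of MC set 6 both miR-181b probes read 13.4 and 16.3 units and both miR-181d probes 17.8 and 18.4 units, the highest of all 63 arrays for all 4 of these probes. The next highest arrays read 3.34 and 9.04 units for miR-181b and 12.0 and 9.99 units for miR-181d. In the same rat the miR-181c probes read 2.70 and -4.91 units, and miR-181a read 36.0 and 9.76 units. For the brighter miR-181a probe this lay between the other rats of its group, and for the dimmer probe it was above their 5.04 and 8.13 units. miR-181b and miR-181d, the pair that differs by a single base, were thus high together on this array, while neither was marked as detected.

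The level of miR-181a is given on 2 log2 scales, and the choice between them decides the results. The first leaves out the background correction, as the study's methods state, and takes the mean brightness of the spots. The second subtracts the background and scales each array by the 75th percentile of the probes whose miRNA was detected everywhere. The background-subtracted signal of the brighter miR-181a probe made up 5.69% to 37.9% of its brightness, with a median of 15.2%. The remainder is background that every group carries, so a given change of the signal is a smaller log2 difference on the first scale.

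Without background correction miR-181a lay between 7.49 and 7.63 over all rats. The highest group means (n = 3, ± SD) were 7.61 ± 0.018 in CFX, 7.61 ± 0.032 in DMN and 7.61 ± 0.016 in MPy. Then came MC set 2 (7.61 ± 0.013), DHEA (7.60 ± 0.012), ETH (7.60 ± 0.018), Nif (7.60 ± 0.014) and CIDB (7.59 ± 0.022). MC set 5 (7.58 ± 0.010), MC set 6 (7.58 ± 0.010), MC set 1 (7.58 ± 0.034) and Mcarb (7.58 ± 0.0056) lay in the middle of the order. Below them were CO set 3 (7.57 ± 0.032), CO set 4 (7.57 ± 0.031), AA (7.57 ± 0.014), DES (7.57 ± 0.033), TAA (7.56 ± 0.012) and PB (7.56 ± 0.013). The lowest were 7.53 ± 0.034 in CPA, 7.55 ± 0.016 in Wy and 7.55 ± 0.0057 in PBO. For the members that were not above background the group means ran from 7.40 (AA) to 7.46 (MC set 6) for miR-181b, from 7.41 (DHEA) to 7.44 (DES) for miR-181c and from 7.41 (MC set 5) to 7.49 (MC set 6) for miR-181d. With the background subtracted, MPy (4.69 ± 0.18), ETH (4.57 ± 0.046) and MC set 2 (4.41 ± 0.11) were highest and CPA (3.35 ± 0.19), CO set 3 (3.67 ± 0.24) and CO set 4 (3.72 ± 0.32) lowest. PB (3.80 ± 0.19), DES (3.88 ± 0.47) and MC set 6 (3.91 ± 0.18) came next from below. Of the 20 pairs of neighbours in the order, 20 on the first scale and 18 on the second differed by less than the larger of their SDs, the exceptions being ETH with MC set 2 and CO set 3 with CPA. Sorting by the mean brings neighbours close, so this count does not test whether groups differ.

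The vehicle and the scan day moved with detection. miR-181a was detected on 12 of 12 MC control arrays and on 2 of 6 CO control arrays, and was well above background on 8 and 0 of them. By scan day, as the file headers give it, it was detected on 22 of 30 arrays on the first day, 28 of 28 on the second and 5 of 5 on the third. The brightness of that probe had medians of 229, 179 and 105 units on these days while its background-subtracted medians were 27.8, 35.3 and 30.6 units. Both CO sets and MC set 6 were scanned on the first day only. Within that day miR-181a was detected on 3 of 3 MC set 6 arrays and 2 of 6 CO arrays, and was well above background on 1 of 3 and 0 of 6.

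**Figure D2:**
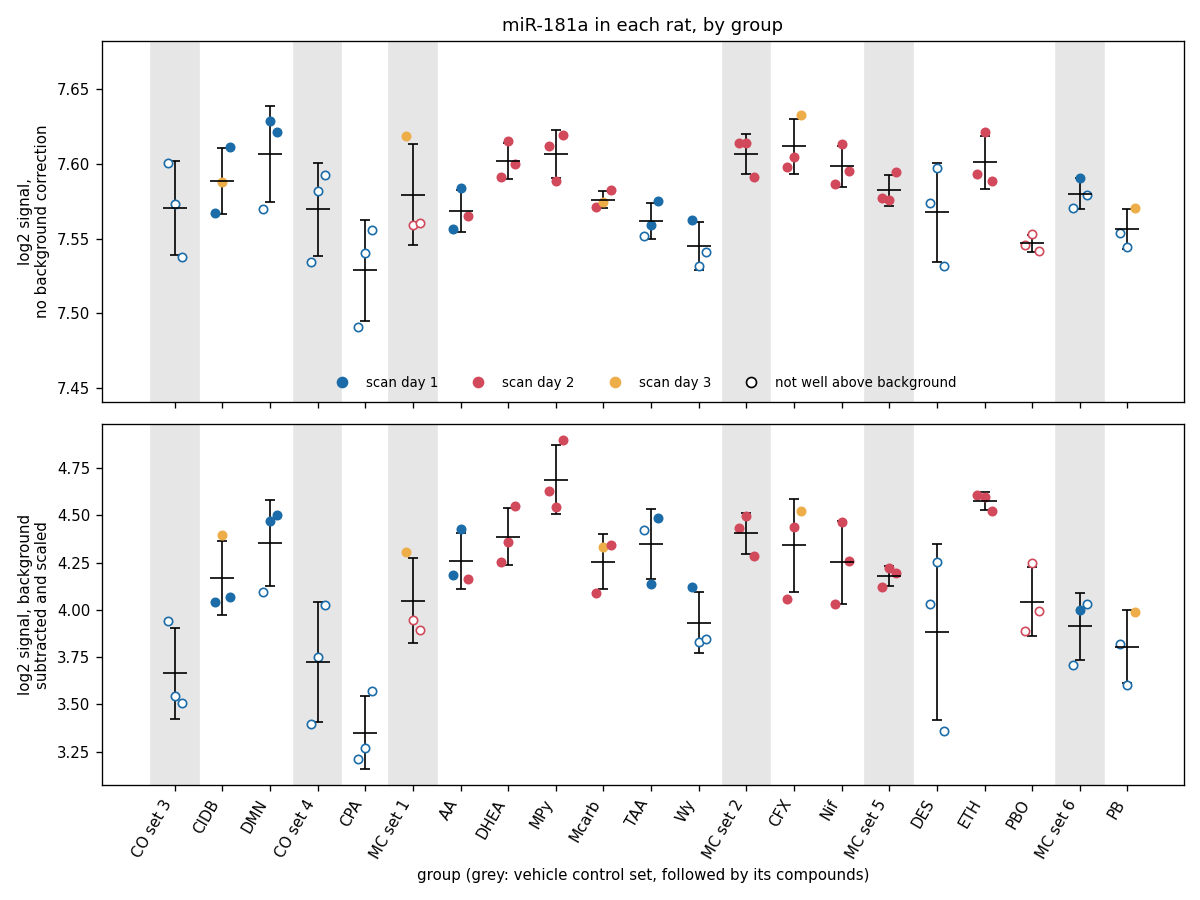
log2 signal of miR-181a in each rat (points) with the mean and SD of each group of 3, without background correction (upper panel) and with the background subtracted and scaled (lower panel). Colours mark the scan day and open points arrays where miR-181a was not well above background, which include all rats of CPA, DES, PBO and both CO sets.

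On the first scale miR-181a was called in 0 of 15 compounds (limma, Benjamini-Hochberg adjusted p under 0.05 over 162 miRNAs), and in 3 compounds the unadjusted p was under 0.05. The other members were not tested, being detected on no array. The share of all 162 miRNAs called was 13.6% in AA, 18.5% in DHEA, 1.85% in Mcarb, 18.5% in MPy, 21.6% in TAA and 25.9% in Wy, which share MC set 1. It was 36.4% in DES, 16% in ETH and 8.64% in PBO on MC set 5, and 3.09% in PB on MC set 6. It was 20.4% in CIDB and 23.5% in DMN on CO set 3, 5.56% in CPA on CO set 4, and 0% in CFX and 0% in Nif on MC set 2. miR-181a therefore stayed uncalled also where a large share of miRNAs passed.

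The 3 compounds with an unadjusted p under 0.05 were DMN, CPA and PBO. DMN lay 0.036 ± 0.017 (SE) log2 units above CO set 3 (limma adjusted p = 0.133). Without the first DMN rat the difference was 0.055 and passed (limma adjusted p = 0.0245). CPA lay -0.041 ± 0.017 from CO set 4 (adjusted p = 0.138). PBO lay -0.036 ± 0.017 from MC set 5 (adjusted p = 0.179), and its 3 rats (7.55, 7.55 and 7.54) were below the 3 control rats (7.58, 7.58 and 7.59). The mark for well above background was met by 0 of 3 PBO arrays and 3 of 3 of MC set 5, so no fold is given for this difference, which did not pass. Under the value table's assignment of the arrays PBO was at -0.060 and passed (adjusted p = 0.0163), and with slide as a fixed block under that assignment it did not (-0.10, adjusted p = 0.411). CPA and its controls were both below that mark on all arrays, so no fold is given. The other 12 differences ran from -0.034 (Wy, adjusted p = 0.147) to 0.027 (MPy, adjusted p = 0.269). When all control rats given the same vehicle were pooled, Wy (-0.042, adjusted p = 0.0156) and PBO (-0.040, adjusted p = 0.0252) passed on this scale. The share of all miRNAs called is not given for the pooled controls, the left-out rat or the value table's assignment.

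DMN, MPy and CIDB passed the same test once the background was subtracted. All 3 were higher than their controls.

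DMN is an alkylating agent that hepatocytes activate and that kills cells around the central vein. On the scaled background-subtracted signal the brighter miR-181a probe read 37.0, 40.2 and 40.9 units in the DMN rats and 27.2, 27.2 and 26.0 units in CO set 3. The groups did not overlap. The dimmer probe read 7.88, 12.2 and 12.5 units against 8.71, 3.94 and 1.57 units, with overlap between 1 rat of each group. The 3.94 and 1.57 units of 2 CO set 3 rats lay under the floor of 5 units and entered the test at that floor, here and for CIDB. Combined over the probes, the log2 difference was 0.69 ± 0.17 (SE), with a 95% interval of 0.34 to 1.03 and an adjusted p of 0.00188 (limma), where 22.2% of the miRNAs were called. As 0 of 3 CO set 3 arrays met the mark for well above background, the fold is given as a bound. It was 1.32-fold (0.40 log2 units), with low control values raised to the lowest signal well above background on their array. This bound carries no sampling error, and the 95% interval starts below it. The call held with each single rat left out (difference 0.61 to 0.83, highest adjusted p = 0.0175). Both groups were scanned on the same day but share no slide, and with slide as a fixed block the difference was 0.71 with an adjusted p of 0.247.

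In MPy, an antihistamine that injures hepatocytes around the portal tract, the brighter probe read 45.8, 38.0 and 46.1 scaled units against 32.4, 28.6 and 26.2 units in MC set 1. The dimmer probe read 13.3, 14.3 and 19.3 units against 12.1, 8.33 and 8.44 units. Neither probe overlapped between the groups. The log2 difference was 0.64 ± 0.17 (SE), or 1.56-fold, with an adjusted p of 0.00242, while 48.1% of the miRNAs were called. The median of all 162 miRNAs had itself moved by 0.304 in this comparison, and miR-181a lay 0.337 above that median. Under the value table's assignment of the arrays the difference was 0.51 (adjusted p = 0.0225), on the 2 control rats of the same scan day it was 0.77, and with slide as a fixed block it was 0.50 (adjusted p = 0.416). MC set 1 was well above background on 1 of 3 arrays.

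CIDB is an azo dye. Its rats read 33.6, 37.1 and 38.1 scaled units on the brighter probe, above the 27.2, 27.2 and 26.0 units of CO set 3. The dimmer probe read 8.10, 11.9 and 7.37 units and overlapped with the controls. The log2 difference was 0.50 ± 0.17 (SE; adjusted p = 0.0184), a bound of at least 1.16-fold, where 34.6% of the miRNAs were called. The median of all miRNAs had moved by 0.198, and miR-181a lay 0.305 above it. The call was lost when CIDB rat 2 was left out (0.39, adjusted p = 0.132), when either the second (0.44, adjusted p = 0.0825) or the third rat of CO set 3 (0.42, adjusted p = 0.0725) was left out, with slide as a fixed block (0.40, adjusted p = 0.293) and with scan day as a block (0.42, adjusted p = 0.0524). Rat 2 was the only CIDB rat scanned on another day than CO set 3, and within the first day the difference was 0.39 (2 rats against 3).

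The other compounds did not pass on this scale. ETH was 0.39 ± 0.17 (SE) above MC set 5 (adjusted p = 0.0963), and its rats lay above all 3 controls. It passed when all control rats given that vehicle were pooled (0.44, adjusted p = 0.00951) and was at 0.17 under the assignment of the value table (adjusted p = 0.535). DHEA was 0.34 above MC set 1 (adjusted p = 0.148) and -0.30 under the assignment of the value table (adjusted p = 0.178), where its arrays are those filed as DES. CPA was -0.37 from CO set 4 (adjusted p = 0.154), and DES was -0.30 from MC set 5 (adjusted p = 0.178) and -0.018 under the other assignment. The remaining compounds ranged from -0.15 (Nif) to 0.30 (TAA). Under the other assignment Nif was at 0.20 and CFX, at -0.064 with the arrays as filed, at 0.29 (adjusted p = 1 and 0.764), so both changed sign. TAA was at 0.17, AA at 0.078, Mcarb at 0.075, Wy at -0.25 and PBO at -0.36 there, and none of them passed (lowest adjusted p = 0.144). The 95% interval of each difference reaches 0.34 to either side, so smaller changes cannot be told from none with 3 rats a group. This interval is not adjusted over the miRNAs, and ETH and CPA lay beyond 0.34 in size without passing the adjusted threshold. Both miR-181a probes differed in the same direction in 12 of 15 compounds.

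In the authors' value table, which holds 135 miRNAs and of the family only miR-181a, DMN (0.32, adjusted p = 0.0401), CIDB (0.29, adjusted p = 0.049972) and PBO (-0.36, adjusted p = 0.0226) passed. The shares of its miRNAs called were 21.5%, 33.3% and 23.7%. MPy was 0.22 above its control column (adjusted p = 0.218). After normexp background correction with an offset of 50, DMN alone passed (0.10, adjusted p = 0.0316). DMN was thus called on the background-subtracted signal, in the value table and with normexp. With the percentile of the background-subtracted signal taken over all probes instead, DMN was at 0.35 (adjusted p = 0.257), CIDB at 0.35 (adjusted p = 0.247) and MPy at 0.12 (adjusted p = 0.740), and Wy alone passed (-0.52, adjusted p = 0.0494). The share of all miRNAs called is not given for normexp or for the percentile over all probes. Nor is it given for pooled controls, left-out rats, blocks or the value table's assignment of the arrays. Whether miR-181a stood apart from the other miRNAs in those calls was not tested.

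**Figure D3:**
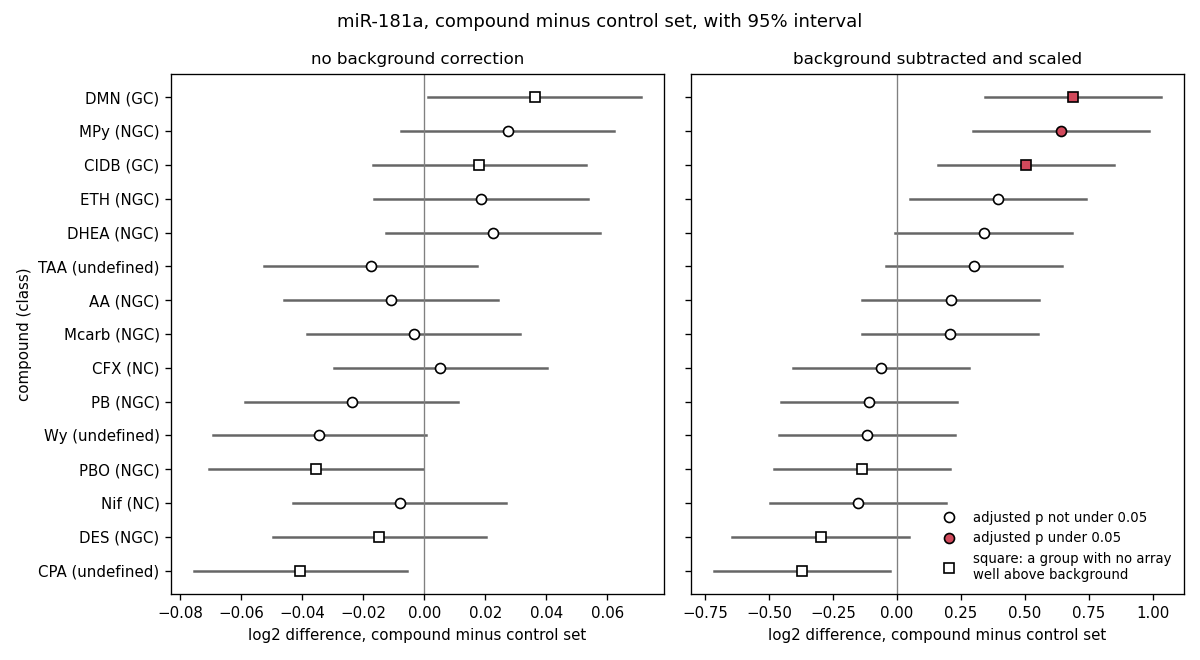
log2 difference of miR-181a between each compound and its control set (points) with its 95% interval from limma (lines), without background correction (left panel) and with the background subtracted (right panel). Filled points passed the adjusted threshold, and squares mark comparisons in which a group had no array well above background. No point is filled on the left, and DMN, MPy and CIDB are filled on the right.

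Between vehicle control sets, which hold no compound, miR-181a was called in 0 of 7 comparisons on the first scale (limma), where no unadjusted p was under 0.05 either. The differences ran from -0.027 (MC set 1 minus MC set 2) to 0.026 (MC set 2 minus MC set 6). Of the 162 miRNAs, 20.4% were called between MC sets 1 and 6, 6.79% between MC sets 2 and 6, 9.26% between MC sets 5 and 6 and 0% in the other 4 comparisons. With the background subtracted, MC set 2 lay 0.49 above MC set 6 (adjusted p = 0.0453), where 13.6% of the miRNAs were called. Under the value table's assignment these arrays belong to MC set 5 and MC set 6, and MC set 2 lay 0.14 above MC set 6 (adjusted p = 0.686). A difference between 2 control sets was thus close in size to that of CIDB against its controls. All MC set 6 arrays were scanned on the first day and all MC set 2 arrays on the second, so these sets alone do not separate scan day from set. With scan day as a block, fitted through groups that span days, the difference without background correction was 0.039 (limma adjusted p = 0.805). That block is not given for this comparison on the background-subtracted signal.

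The classes were compared with the compound as the unit, by exact permutation of the class labels, two-sided. Compounds that share a control set are not independent units. Both GC compounds share CO set 3 and no NGC compound was compared with corn oil, and both NC compounds share MC set 2, so class and control set cannot be told apart for GC and NC. Without background correction the mean log2 difference was 0.0034 ± 0.024 (SD, n = 10) in C and -0.0015 (n = 2) in NC, exact p = 0.788. NGC (-0.0025 ± 0.023, n = 8) and GC (0.027, n = 2) differed by -0.030, exact p = 0.156, and NGC and NC by -0.0011, exact p = 0.956. After adjustment over the 3 contrasts the lowest p was 0.467 (exact permutation). The smallest p that the design allows is 0.0152 for C vs. NC and 0.0222 for the others. A contrast at 0.0222 would not pass the adjustment over 3 contrasts unless another contrast was small too. On the background-subtracted signal NGC lay at 0.16 ± 0.31 and GC at 0.60, exact p = 0.111. C lay 0.35 above NC on that signal (exact p = 0.227) and -0.22 from NC in the value table (exact p = 0.258). NGC lay 0.26 above NC (exact p = 0.289) and -0.29 from it in the table (exact p = 0.0667), so both contrasts with NC changed direction between these sources. They also did so on the background-subtracted signal alone when the arrays were assigned as in the value table, with C at -0.12 from NC (exact p = 0.636) and NGC at -0.24 from NC (exact p = 0.289). NGC lay -0.59 from GC there, with an exact p of 0.0444, or 0.133 after adjustment (exact permutation). Without background correction that assignment put C at -0.031 from NC (exact p = 0.182), while C lay 0.0049 above NC with the arrays as filed. NGC lay -0.039 from NC (exact p = 0.111) and -0.040 from GC (exact p = 0.0889) under it. In the value table NGC lay -0.37 from GC with an exact p of 0.0444, or 0.1 after adjustment (exact permutation). In limma over all miRNAs miR-181a passed no class contrast on any of these 3 sources, with a lowest adjusted p of 0.278. For NGC vs. GC, 3 of 162 miRNAs passed with the background subtracted, 1 of 135 in the value table and 0 without background correction. In both contrasts with NC 0 miRNAs passed on each source, so few miRNAs of any kind were called between classes.

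Leukocyte miRNAs were set beside miR-181a, since the family is abundant in lymphocytes. In DMN 4 of the 5 on the array rose without background correction, with 23.5% of all miRNAs called there. miR-142-3p, specific to blood cells, rose by 0.76 ± 0.12 log2 units (adjusted p = 1.01e-06), miR-146a, induced by inflammatory signals, by 0.49 ± 0.078 (adjusted p = 2.82e-06) and miR-223, a miRNA of granulocytes and macrophages, by 0.40 ± 0.050 (adjusted p = 1.78e-08). miR-150, known from mature lymphocytes, was at 0.0037 (adjusted p = 0.960). The median of the list was 0.40 and that of all miRNAs tested -0.0044. On this scale miR-181a itself was not called. With the background subtracted 4 of 5 were higher, with 22.2% of all miRNAs called. The median of the list there was 1.23 and that of all miRNAs 0.061, and miR-150 was at 0.092 (limma adjusted p = 0.792). The summed scaled signal of the 5 was 692, 997 and 856 units in the DMN rats and 334, 269 and 386 units in CO set 3, with miR-142-3p the brightest in each. The part of leukocytes in the miR-181a value was not tested, and in whole liver more such cells and more RNA per cell cannot be told apart.

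In CIDB the leukocyte list did not rise. On the first scale 0 of 5 were higher and 1, miR-223, was lower (-0.15 ± 0.050, adjusted p = 0.0259), with 20.4% of all miRNAs called. With the background subtracted 0 of 5 passed in either direction, with 34.6% of all miRNAs called, and miR-223 was at -0.34 (adjusted p = 0.195). The summed signal was 290, 331 and 286 units, within the range of CO set 3. In MPy 0 of 5 passed on the first scale, with 18.5% of all miRNAs called, and 4 of 5 were higher with the background subtracted, with 48.1% of all miRNAs called. The median of the list there was 0.471 and that of all miRNAs 0.304, and the sum was 554, 542 and 643 units against 420, 393 and 403 units in MC set 1.

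**Figure D4:**
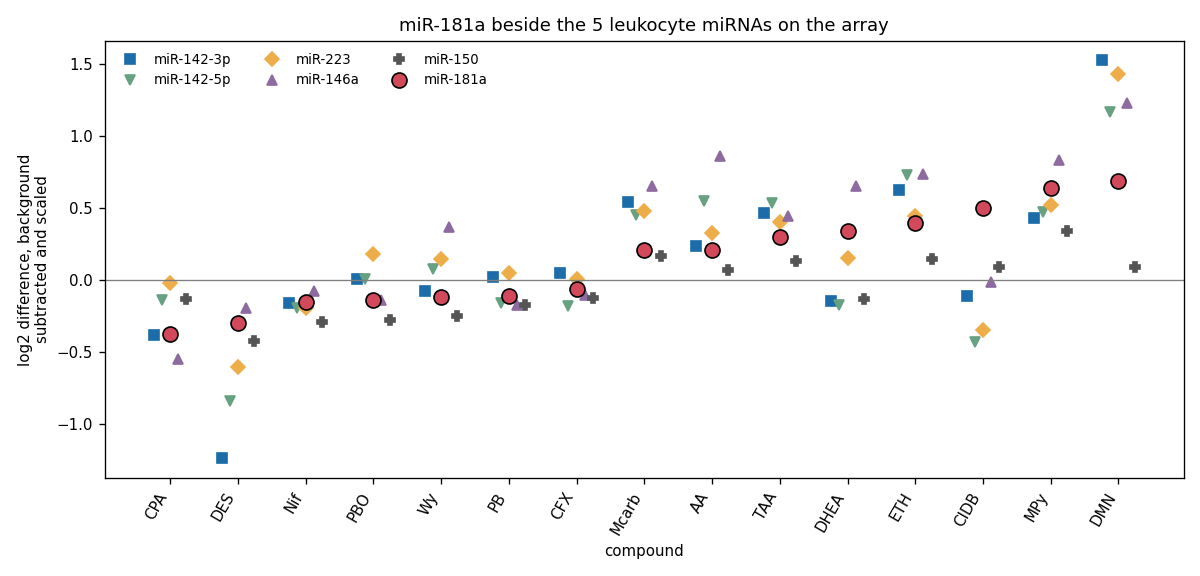
log2 difference from the control set for miR-181a (large circles) and the 5 leukocyte miRNAs on the array (other symbols) in each compound, background subtracted and scaled. In DMN miR-142-3p, miR-142-5p, miR-223 and miR-146a lie above miR-181a at 0.69, and in CIDB miR-181a at 0.50 lies above all 5.

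Of the stellate, mesenchymal and endothelial miRNAs, 6 of 8 were detected and tested. In DMN 4 of them fell and 0 rose on the first scale, with a median of -0.12, beside -0.0044 over all miRNAs and 23.5% of them called. miR-143, of smooth muscle and mesenchymal cells, fell by 0.33 (adjusted p = 5.54e-06), miR-199a-3p, a miRNA of stellate cells, by 0.24 (adjusted p = 0.00334), and miR-126, of endothelium, by 0.18 (adjusted p = 0.0253). On the background-subtracted signal 1 of 6 was lower in DMN, miR-143 (-0.51, adjusted p = 0.000191), with 22.2% of all miRNAs called, while miR-199a-3p was at -0.53 (adjusted p = 0.0665) and miR-126 at -0.11 (adjusted p = 0.491). In CIDB and MPy 0 of 6 passed on the first scale, where 20.4% and 18.5% of all miRNAs were called. On the second, miR-126 was higher in CIDB (0.30, adjusted p = 0.00868), 1 of 6 with 34.6% of all miRNAs called. In MPy 6 of 6 were higher there, with 48.1% of all miRNAs called, and the median of the list was 0.506 beside 0.304 over all miRNAs.

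Of the hepatocyte miRNAs 3 of 4 were tested. On the first scale 1 of 3 was lower in DMN, 2 of 3 in CIDB and 1 of 3 in MPy, and 0 were higher. The shares of all miRNAs called there were 23.5%, 20.4% and 18.5%. In DMN the median of the list was -0.092, and miR-122, the main miRNA of hepatocytes, fell by 0.092 (adjusted p = 0.0329). In the same rats miR-194 was at -0.14 (adjusted p = 0.135) and miR-192 at 0.035 (adjusted p = 0.772). In CIDB miR-192 fell by 0.50 (adjusted p = 2.28e-07) and miR-122 by 0.33 (adjusted p = 3.04e-11), and in MPy miR-194 fell by 0.32 (adjusted p = 0.000326). With the background subtracted, the values of miR-192 and miR-122 in CIDB were -0.090 (adjusted p = 0.567) and 0.084 (adjusted p = 0.582), and that of miR-122 in DMN was -0.098 (adjusted p = 0.672). In MPy 2 of 3 were lower on that signal, miR-194 (-0.30, adjusted p = 0.00915) and miR-192 (-0.27, adjusted p = 0.0349), with 48.1% of all miRNAs called and a median of all miRNAs of 0.304.

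The miRNAs whose pattern was most like that of miR-181a were sought among the 71 detected on every array, over the 21 group means. This was added after values were seen, because miR-181a itself was not detected on every array. Without background correction Pearson's r was highest for miR-27a (0.655), miR-23a (0.584) and miR-142-3p (0.465) and lowest for miR-29c (-0.586), miR-361 (-0.571) and miR-107 (-0.500). With the background subtracted the same 3 were highest (miR-27a 0.825, miR-142-3p 0.809 and miR-23a 0.761), and miR-29c, miR-29a and miR-192 were lowest (-0.655, -0.589 and -0.522). After the values without background correction were centred on scan day, miR-19b (0.638), miR-146a (0.629) and miR-27a (0.532) led. The group means share arrays, slides and scan days, so these are descriptions of these arrays.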

How the data were processed

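Per the file headers, the authors' scanner files hold spot intensity from Agilent Feature Extraction, as mean brightness and as a background-subtracted signal. The labels and the study's methods give different amounts of RNA per array. The authors' deposited table holds log2 values, made with RMA per the submitters' processing notes. Its column medians run from 4.49 to 5.01, against array medians of 7.68 to 7.76 for the same miRNAs without background correction.

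Spots with an outlier flag (2.87% of 7000 miRNA spots per array) and control spots were left out, spots of a probe averaged after quantile normalization, and probes combined by median polish. No miRNA spot was saturated. Undetected miRNAs were dropped. limma 3.58.1 in R 4.3.3 compared each compound with the control set its label names, in a model of 63 arrays and 21 groups with Benjamini-Hochberg adjustment. Background-subtracted values under 5 units were set to 5 after scaling, which applied to the dimmer miR-181a probe on 5 arrays (2 of CO set 3, 1 of CO set 4 and 2 of CPA). The number of arrays limits the precision. Labels call the samples separate rats.

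Group levels were given for all members. Companion miRNAs came from 3 lists (leukocyte, stellate with mesenchymal and endothelial, hepatocyte), of which at most 3 per list were named where they passed in a compound in which a member passed. Members and lists were chosen with earlier results of these data known. The model was tested on simulated data.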

Additional observations from a re-analysis of the deposited data

How the results depend on the processing

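miR-181a was called in 0 of 15 compounds without background correction. It was called in 3 with the value table (DMN, CIDB and PBO), in 3 with the processed signal scaled over detected probes (DMN, MPy and CIDB), in 1 with the percentile over all probes (Wy), in 1 with normexp (DMN), in 2 with all control rats of the same vehicle (PBO and Wy) and in 1 under the assignment of arrays that the value table follows (PBO, -0.060, adjusted p = 0.0163), or 0 with slide as a block under that assignment (-0.10, adjusted p = 0.411). With single rats left out the count was 0 to 1, the 1 being DMN without its first rat (0.055, adjusted p = 0.0245). The cause of these changes was not tested, apart from the background's share of the brightness given above. Shares of all miRNAs called are not given for normexp, the percentile over all probes, pooled controls, left-out rats, blocks or the table's assignment. The count stayed at 0 under the other filters, the slide and scan day blocks and the models of a compound with its control set alone. Of 197 differences under settings other than a left-out rat, 166 kept their direction and stayed uncalled, 20 changed sign with neither value called, 11 became called and 0 reversed. Between control sets the count went from 0 to 1 with the processed signal scaled over detected probes. NGC vs. GC had an unadjusted exact permutation p under 0.05 with the value table (-0.37, exact p = 0.0444), normexp (-0.093, exact p = 0.0222) and slide as a block (-0.083, exact p = 0.0444). The same held without the first rat of CO set 3, and with single rats left out the contrast ranged from -0.045 to -0.013. After adjustment over the 3 contrasts the value table gave 0.1 (exact permutation). Adjusted values are not given for the other settings. On the background-subtracted signal, checks added after seeing the data called miR-181a in 0 compounds with slide as a fixed block, 3 with slide as a random block, 2 with scan day as a block, 4 with all control rats of the vehicle (DMN, MPy, CIDB and ETH) and 3 under the table's assignment. On that signal DES was at -0.30 with all rats and was called without DES rat 2 (-0.48, limma adjusted p = 0.0421). Without DES rat 3 the difference was -0.038 (limma adjusted p = 0.941), so it depended on single rats in both directions. miR-181b, miR-181c and miR-181d were called in 0 compounds with no detection filter. In that setting miR-181d differed between MC set 6 and each of MC sets 1, 2 and 5 (adjusted p = 0.0117, 0.00384 and 0.00408), and miR-181b from MC sets 1 and 5 (0.0238 and 0.0465), and neither did without the third rat of MC set 6 (lowest adjusted p = 0.0744). PB with MC set 6 and CPA with CO set 4 share replicate numbers, and same-numbered rats did not deviate together (r from -0.30 to 0.043 over 71 miRNAs). With the replicate block 0 of these were called. Differences between members could not be tested, since no other member was marked as detected on any array.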
